A study of Mus musculus with 6 samples.

Results

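The 42 genes described here encode the kinetochore, the centromere and the spindle checkpoint. They were listed by gene symbol, with earlier results of these data known. They are 42 of the 19505 genes measured on the arrays, each with 1 probe set. The cells were 393P, a line from a mouse lung adenocarcinoma that some labels write as 9393P, stably transfected with AC9 in 3 samples and with the empty VECTOR in the other 3, each read on 1 Clariom S array. AC9 is listed in the reference gene table as a synonym of Adcy9, adenylyl cyclase 9, an enzyme that makes cAMP. All cells grew in the same serum-containing medium. Puromycin or G418 was used for selection, but the labels do not assign a drug to a group, and they say neither whether each line was a pool or a clone nor which promoter drives AC9. An effect of the drug, or of the cells that survived it, cannot be told apart from one of AC9. Nothing says that the samples of a group were separate cultures, so p-values cover the spread among these arrays alone, and this may be technical.

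The kinetochore is the protein assembly that ties each chromosome's centromere to spindle microtubules. Its inner layer rests on nucleosomes that hold the histone variant CENP-A and on the constitutive centromere-associated network. Its outer layer, made of the KNL1, MIS12 and NDC80 complexes, grips the microtubule, and unattached kinetochores switch on the spindle checkpoint, which holds the anaphase-promoting complex back until every chromosome is attached. Transcripts of many of these genes peak in late S phase to mitosis. In RNA from whole cultures, more cells in those phases and more transcript per cell cannot be told apart.

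Levels are log2 intensities per probe set, and each gene had its own probe set, so levels of different genes are not compared with each other. A level of 6.06, the 90th percentile of the negative control probes averaged over arrays, served as the bound for dim signals. Adcy9, the check of the labels, read 6.12, 6.09 and 6.15 in VECTOR and 6.78, 6.60 and 6.82 in AC9 (log2 change 0.61, SE 0.10, adjusted p 0.00264), without overlap; the labels do not say whether its probes read the introduced AC9. The median level per array was 6.42 to 6.46, and arrays correlated across genes at 0.994 to 0.996 within a group and 0.985 to 0.988 between groups. Of 6 epithelial markers, 6 lay above the bound, with E-cadherin (Cdh1) at 12.84 and keratin 18 (Krt18) at 12.37 in VECTOR. The 4 measured leukocyte and 4 endothelial markers, and the fibroblast genes Dcn and Lum, lay under it in both groups, while Col1a1 read 6.95 in VECTOR and 7.01 in AC9. The leukocyte markers averaged 4.54 to 4.71 per array in VECTOR and 4.70 to 4.85 in AC9. Of the 23 background probe sets, 19 were lower in AC9 without overlap, and the differences ran from -0.50 to 0.01. The 90th percentile of the negative controls went the other way, at no more than 6.07 on the VECTOR arrays and 6.08 to 6.11 in AC9, without overlap.

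Most of the genes were higher in the AC9 cells. By limma at an adjusted p of 0.05 over all genes, 28 of the 42 rose, 1 fell and 13 did not pass, against a background of 8.26% of all genes higher and 9.29% lower. The fitted rise was at least 2-fold for 16 of them, against 0.713% of all genes. By group mean, 13 of the 16 lay above the dim bound in both groups. Among these 13, Bub1b, Nuf2, Spc25 and Oip5 each had 1 VECTOR array under its own array's bound. Kntc1, Ska3 and Cenpk, dim in VECTOR, have lower limits below 2-fold. Cenpa (2.08-fold) and Cenpn (2.10-fold) lay just inside that limit, and Cenpm (1.98-fold) and Cenpq (1.92-fold) just outside it. Ranked by fitted rise among the 19505 genes, Bub1 was at rank 4, Cenpe at 7, Bub1b at 16, Knl1 at 17, Nuf2 at 25 and Ndc80 at 30. All 3 AC9 arrays lay above all 3 VECTOR arrays for 32 members (background 17.3%) and below them for 2 (background 17.7%), and the groups overlapped for 8. The median log2 change was 0.79 over the 42 members and 0.69 over the 35 that were above the bound in both groups, against 0.02 over all genes. Averaged over the 42 genes, the VECTOR arrays read 6.95, 6.95 and 7.07 and the AC9 arrays 7.79, 7.78 and 7.76. Leaving out 1 array at a time, 25 to 28 members rose.

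**Figure D1:**
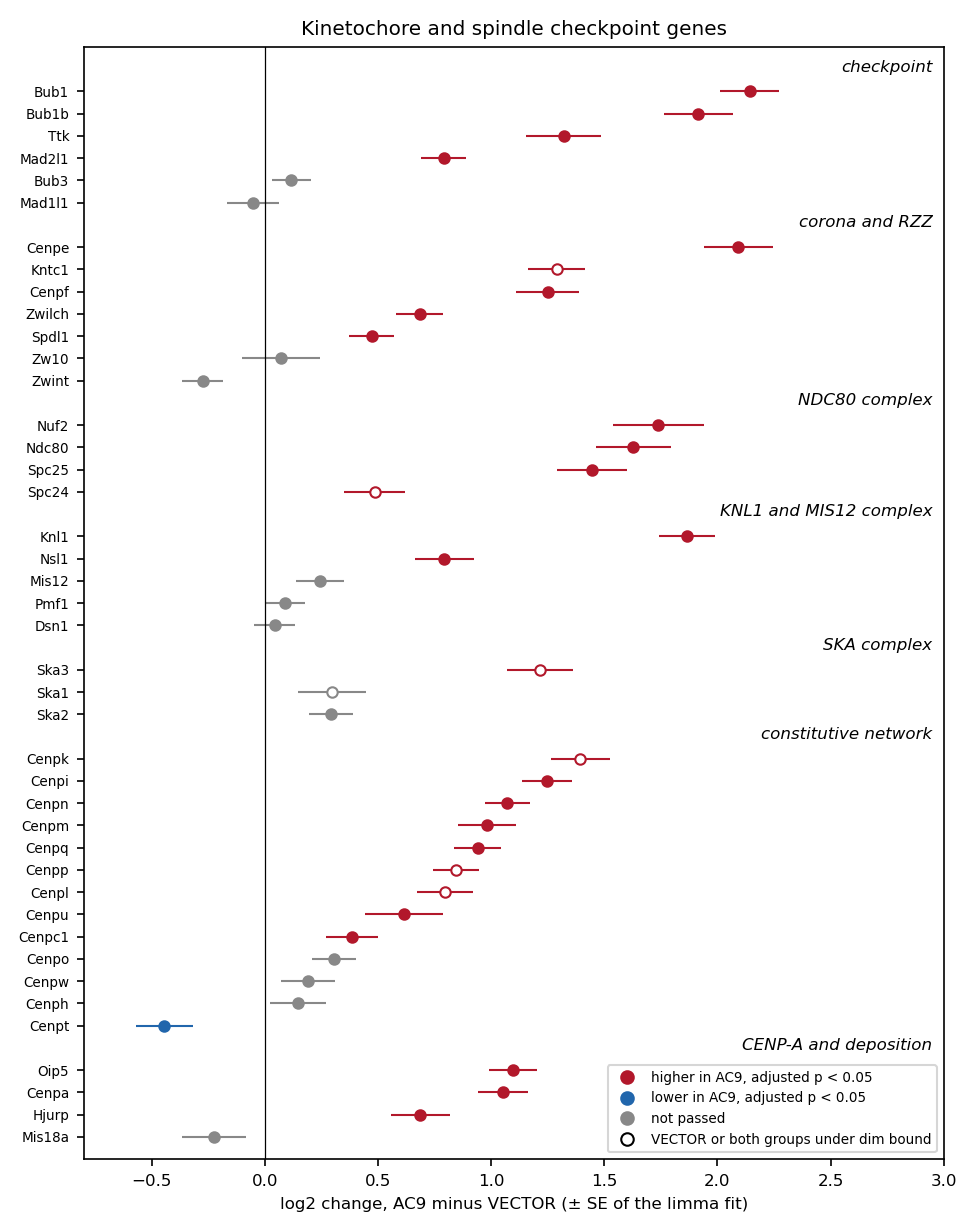
Log2 change (AC9 minus VECTOR, horizontal axis, bars are the SE of the limma fit, n = 3 arrays per group) of each of the 42 genes, in role groups; red passed upward, blue passed downward, grey did not pass, and open symbols mark genes with VECTOR or both groups under the dim bound. Bub1, at 2.14, and Cenpe, at 2.09, lie farthest to the right, and Cenpt, at -0.44, farthest to the left.

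In 6 of the 7 role groups, members that rose stood beside members that did not pass. The median log2 change was 1.54 in the NDC80 complex, 1.06 in the checkpoint group, 0.87 for CENP-A and its deposition factors, 0.80 in the constitutive network, 0.68 in the corona and dynein-adaptor group, 0.30 in the SKA complex and 0.24 in the KNL1 and MIS12 group. These medians describe 3 to 13 genes each and include genes under the dim bound. That of the constitutive network is the value of Cenpl, which was dim in VECTOR. Over genes above the bound in both groups, the median was 0.50 in that network (10 genes) and 0.58 in the corona group (6 genes). It was 1.63 in the NDC80 complex (3 genes), and in the SKA complex Ska2 alone was above the bound, at 0.29. The other groups held no dim gene. In the SKA complex, where Ska1 was dim in both groups, the median was 0.75 with the genes of lowest mean level left out, which drops Ska1. The NDC80 complex had 4 of 4 members called, and the others between 1 of 3 (SKA) and 10 of 13 (constitutive network, 9 higher and 1 lower). Over all genes, 17.6% were called in either direction.

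Promoter sequences were available from RefSeq (GRCm38.p6) for 38 of the 42 genes; Spc24, Nsl1, Zwilch and Ska1 had no entry. Genes expressed in G2 and mitosis often carry a cell cycle homology region (CHR), an element bound by MuvB complexes such as DREAM, close to the transcription start, with CCAAT boxes, which bind NF-Y, further upstream. Both strands of each promoter were searched for the CHR letters TTTGAA and TTCGAA, for CCAAT, and for the E2F letters TTTCCCGC, TTTGGCGC, TTTCGCGC and TTTGCCGC. TTCGAA reads the same on both strands, the motifs of a class were counted once per gene, and a gene with several starts counted if any of them matched. In the 100 bases around the start (50 before and 50 after), CHR letters were found in 12 of the 16 members that rose at least 2-fold (75%), in 2 of 9 that rose less and in 2 of 13 that did not rise. Of the 15691 array genes with a promoter, 794 (5.06%) held them. Among the 13 strong risers above the dim bound in both groups, 10 held them. Over the whole 300-base window the sets lay closer together: 12 of 16 strong risers, 4 of 9 weaker risers, 5 of 13 that did not rise (38.5%) and 19.6% of array genes held CHR letters. A match is a description of letters, not a shown binding site.

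The 12 sites are printed because they hold the letters that 12 of the 16 strong risers had in common: 30 bases each, 5′ to 3′ on the gene's strand, with the CHR letters in capitals (TTCAAA is TTTGAA read from the opposite strand). Their first capital lay from 14 bases before the start, in Ska3, to base 41 after it, in Bub1b, with the start as base 1. Bub1, Bub1b, Ttk, Cenpf, Kntc1 and Ndc80 come first, and Spc25, Knl1, Ska3, Cenpn, Cenpa and Oip5 follow.
Bub1 (chr2:127831828-127831857, minus strand): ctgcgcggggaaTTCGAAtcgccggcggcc
Bub1b (chr2:118598231-118598260, plus strand): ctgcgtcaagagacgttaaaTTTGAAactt
Ttk (chr9:83834684-83834713, plus strand): cagcggggaaatTTCAAAcgtgtttccgga
Cenpf (chr1:189688067-189688096, minus strand): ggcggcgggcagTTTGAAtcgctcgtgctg
Kntc1 (chr5:123749706-123749735, plus strand): ttctcccgccaaTTCAAAtcagtggcaggg
Ndc80 (chr17:71526811-71526840, minus strand): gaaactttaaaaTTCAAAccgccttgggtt
Spc25 (chr2:69206172-69206201, minus strand): ggcggtggagagTTTGAAattgaaagactg
Knl1 (chr2:119047138-119047167, plus strand): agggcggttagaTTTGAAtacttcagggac
Ska3 (chr14:57826160-57826189, minus strand): gcctgcgcaggaTTCAAAtgtgtagcgcgt
Cenpn (chr8:116921719-116921748, plus strand): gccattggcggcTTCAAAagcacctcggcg
Cenpa (chr5:30666890-30666919, plus strand): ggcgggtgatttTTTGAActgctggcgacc
Oip5 (chr2:119618456-119618485, minus strand): aagaggcgcgcgcTTCAAAgaaatatggcg

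Cenpe, Nuf2, Cenpi and Cenpk, which also rose at least 2-fold, held no CHR letters there. No match says only that these letters are not in this window.

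**Figure D2:**
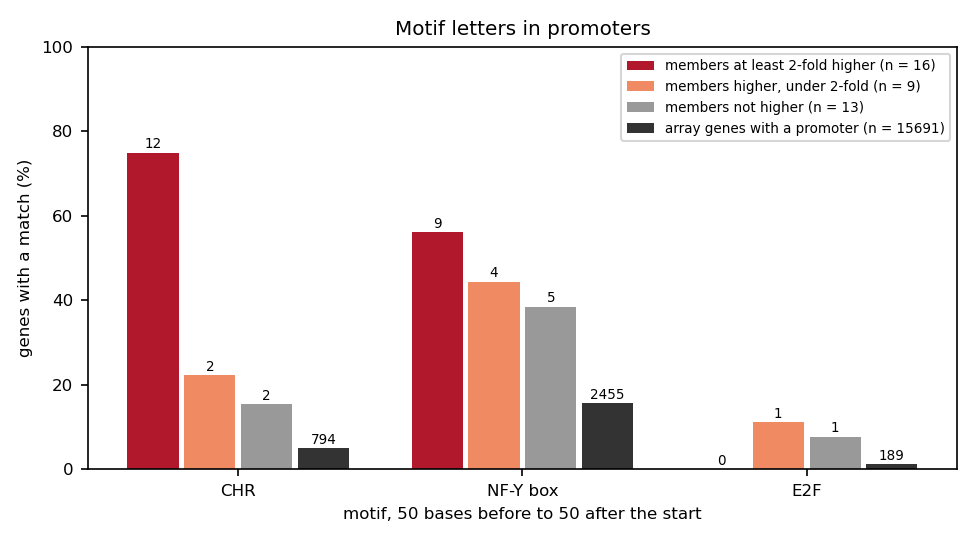
Share of genes (percent, vertical axis, from 0) whose promoter holds the CHR, NF-Y box or E2F letters in the 100 bases around the start, for members that rose at least 2-fold, members that rose less, members that did not rise, and all array genes with a promoter; the number over each bar counts genes with a match. CHR letters were in 75% of the strong risers and 5.06% of array genes.

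CCAAT boxes were found in each of these 3 sets of members. In the same 100 bases they were found in 9 of 16 strong risers, 4 of 9 weaker risers and 5 of 13 that did not rise, against 15.6% of array genes. Over the 300-base window they were found in 12 of 16, 7 of 9 and 7 of 13, against 42.2% of array genes. There the strong risers did not exceed the weaker ones. In the 100 bases around the start, E2F letters were found in 0 of the 16 strong risers and in 2 of all 38 members, against 1.2% of array genes. Over the 300-base window they were found in 0 of 16, 2 of 9 and 2 of 13. That is 4 of all 38 members (10.5%), against 3.38% of array genes. CHR letters and a CCAAT box anywhere in the 300-base window occurred together in 16 of 38 members (42.1%) and in 9.14% of array genes. The 120 bases before the start are shown as examples for 3 strong risers with a pair of CCAAT boxes. Ska2, which has a pair in this stretch and did not pass, and Cenpt, the 1 member that fell, which has none, follow. Other members have more than 1 CCAAT box there and are not shown. They include Bub3 (at 1 of its starts) and Mis12, which did not pass, and the strong risers Cenpa and Oip5. Capitals mark CCAAT or its reverse, ATTGG.
Bub1 (chr2:127831860-127831979, minus strand): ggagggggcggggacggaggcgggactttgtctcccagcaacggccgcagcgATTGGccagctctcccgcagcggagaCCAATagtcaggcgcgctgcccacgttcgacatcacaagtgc
Ttk (chr9:83834569-83834688, plus strand): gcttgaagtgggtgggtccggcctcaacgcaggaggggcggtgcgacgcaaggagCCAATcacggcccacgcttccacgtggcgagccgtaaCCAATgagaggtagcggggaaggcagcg
Spc25 (chr2:69206214-69206333, minus strand): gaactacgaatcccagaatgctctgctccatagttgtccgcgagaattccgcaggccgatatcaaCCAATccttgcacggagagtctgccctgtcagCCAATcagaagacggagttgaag
Ska2 (chr11:87109141-87109260, plus strand): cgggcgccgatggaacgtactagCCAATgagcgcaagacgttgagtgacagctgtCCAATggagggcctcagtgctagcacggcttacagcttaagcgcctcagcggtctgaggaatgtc
Cenpt (chr8:105852009-105852128, minus strand): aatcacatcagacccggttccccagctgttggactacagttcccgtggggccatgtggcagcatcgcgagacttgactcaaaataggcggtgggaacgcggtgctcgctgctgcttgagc

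In the checkpoint group, 4 of 6 genes rose. Bub1, the kinase that marks centromeric chromatin and recruits shugoshin, read 6.87, 6.54 and 7.05 in VECTOR and 8.99, 8.95 and 8.95 in AC9. The AC9 arrays lay close together and all above the highest VECTOR array, a log2 change of 2.14 (SE 0.13, 4.42-fold, adjusted p 1.94e-05). Bub1b, which encodes BubR1, a part of the complex that inhibits the anaphase-promoting complex, read 6.30, 5.78 and 6.31 in VECTOR and 7.91, 8.18 and 8.05 in AC9. VECTOR replicate 2 was the lowest array, below the dim bound, and the groups did not overlap (log2 change 1.92, SE 0.15, adjusted p 6.06e-05). Ttk, the MPS1 kinase that starts checkpoint signalling, rose by 1.32 (SE 0.17, adjusted p 0.000801). Mad2l1, the MAD2 protein that binds Cdc20, rose by 0.79 (SE 0.10, adjusted p 0.000765). Mad1l1, which holds MAD2 at unattached kinetochores, read 7.98, 8.26 and 8.25 in VECTOR and 7.97, 8.19 and 8.18 in AC9, and its groups overlapped (log2 change -0.05, adjusted p 0.812). Bub3, the adaptor that both Bub1 and BubR1 bind, read 10.59, 10.61 and 10.66 in VECTOR and 10.74, 10.75 and 10.71 in AC9. Its AC9 arrays were all above its VECTOR arrays, yet the log2 change of 0.12 (SE 0.09) did not pass (adjusted p 0.419).

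In the corona and dynein-adaptor group, 5 of 7 rose. Cenpe, the kinesin that carries chromosomes toward microtubule plus ends, read 7.05, 6.51 and 7.07 in VECTOR and 9.08, 8.93 and 8.89 in AC9. VECTOR replicate 2 was again the lowest, and every AC9 array exceeded every VECTOR array by more than that spread (log2 change 2.09, SE 0.15, 4.26-fold, adjusted p 4.40e-05). Kntc1, the ROD subunit of the ROD-Zwilch-ZW10 complex that brings dynein to kinetochores, read 5.51, 5.84 and 5.71 in VECTOR and 7.11, 6.77 and 7.05 in AC9. All 3 VECTOR arrays were under the dim bound, so the rise is given as at least 1.93-fold (adjusted p 0.000215). Cenpf, a large coiled-coil protein of the corona, rose by 1.25 (SE 0.14), Zwilch by 0.68 (SE 0.10) and Spdl1, the dynein adaptor Spindly, by 0.47 (SE 0.10; adjusted p 0.000432, 0.00222 and 0.0109). Zw10, which also serves membrane traffic outside mitosis, read 6.91, 6.54 and 7.04 in VECTOR and 7.14, 6.56 and 7.00 in AC9. Replicate 2 was the lowest array in both groups, and the groups overlapped (log2 change 0.07, SE 0.17, adjusted p 0.830). Zwint, which joins KNL1 to this complex, read 9.67, 9.60 and 9.69 in VECTOR and 9.44, 9.39 and 9.30 in AC9. Its AC9 arrays were all lower, and the log2 change of -0.28 (SE 0.09) missed the threshold at an adjusted p of 0.0672; it passed with dim genes left out (adjusted p 0.0244) and with an intensity-trended prior (0.0107).

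**Figure D3:**
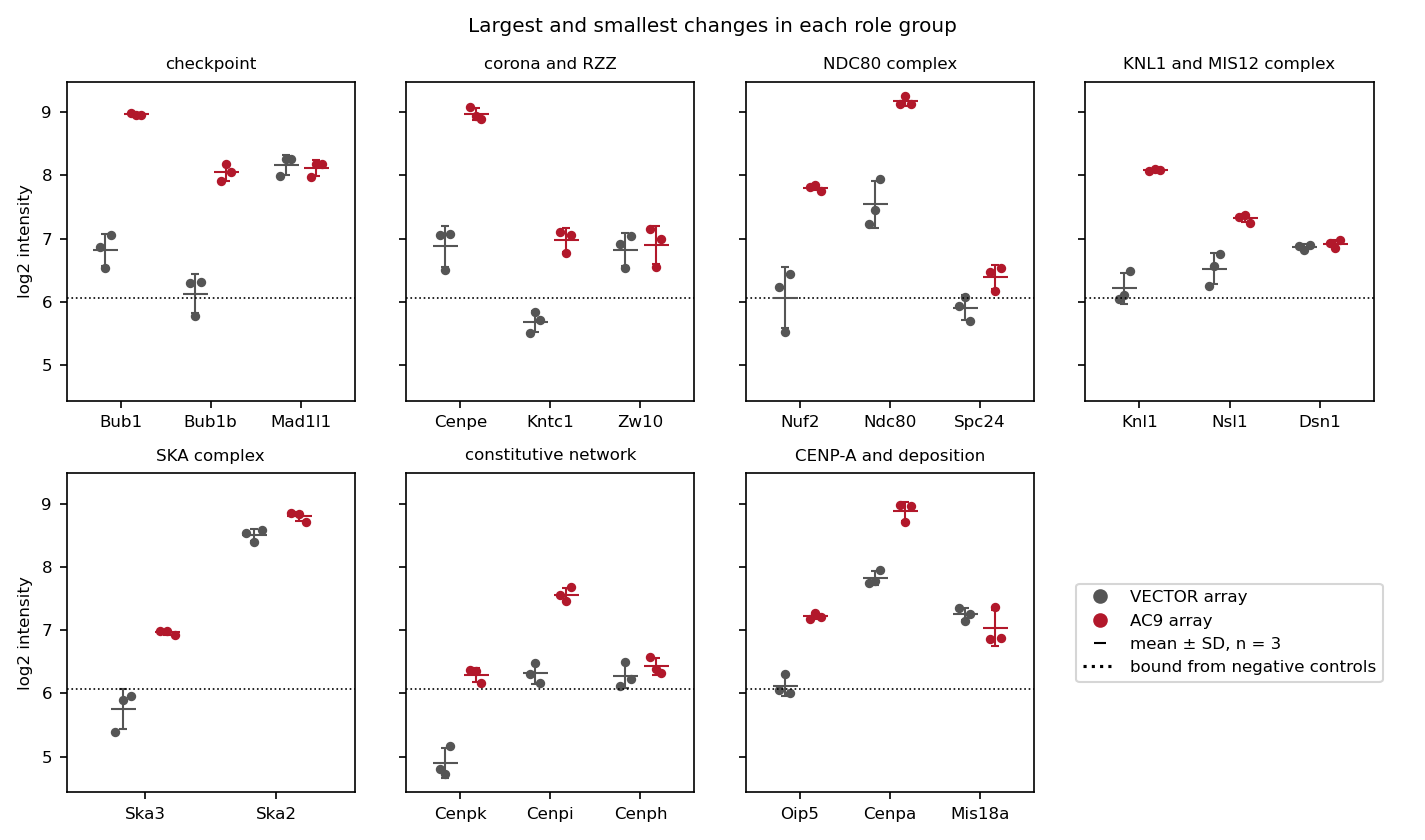
Log2 intensity (vertical axis) on each array of the members with the largest and the smallest change in each role group; points are arrays, horizontal marks and bars the mean ± SD (n = 3), and the dotted line the bound from the negative controls. The VECTOR arrays of Kntc1, Ska3 and Cenpk lie under the line, and Mad1l1, Zw10, Dsn1, Cenph and Mis18a overlap between groups.

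All 4 genes of the NDC80 complex rose. Nuf2, which with Ndc80 forms the microtubule-binding end, read 6.23, 5.53 and 6.44 in VECTOR and 7.82, 7.84 and 7.76 in AC9. VECTOR replicate 2 lay below the other VECTOR arrays and under the dim bound, and the AC9 arrays stood close together (log2 change 1.74, SE 0.20, adjusted p 0.000512). Ndc80 read 7.22, 7.45 and 7.94 in VECTOR and 9.13, 9.25 and 9.12 in AC9, with no overlap (log2 change 1.63, SE 0.17, adjusted p 0.000254). Spc25, which with Spc24 forms the end that docks on the MIS12 complex, rose by 1.45 (SE 0.15, adjusted p 0.000334). Its partner Spc24 read 5.94, 6.08 and 5.69 in VECTOR and 6.48, 6.17 and 6.53 in AC9. Its VECTOR mean was under the dim bound, so the rise is given as at least 1.26-fold (adjusted p 0.0348). This call was lost without VECTOR replicate 1 (0.0770) or 3 (0.0987), without AC9 replicate 1 (0.112) or 3 (0.113), and with the replicate block (0.0615).

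Of the KNL1 and MIS12 group, 2 of 5 rose. Knl1, the scaffold whose phosphorylated repeats recruit Bub3 with Bub1, read 6.05, 6.10 and 6.49 in VECTOR and 8.06, 8.10 and 8.09 in AC9. Its AC9 arrays were nearly identical and well above VECTOR (log2 change 1.87, SE 0.12, 3.65-fold, adjusted p 2.72e-05). The MIS12 complex links this scaffold and NDC80 to the inner kinetochore, and Nsl1 was its 1 subunit to pass, reading 6.26, 6.57 and 6.75 in VECTOR and 7.35, 7.37 and 7.24 in AC9 (log2 change 0.79, SE 0.13, adjusted p 0.00314). Dsn1 read 6.89, 6.82 and 6.91 in VECTOR and 6.92, 6.85 and 6.97 in AC9, with overlapping groups and a log2 change of 0.04 (adjusted p 0.798). Mis12 and Pmf1 had log2 changes of 0.24 (SE 0.11) and 0.09 (SE 0.09), with adjusted p of 0.160 and 0.540.

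The SKA complex strengthens the grip of kinetochores on microtubules, and 1 of its 3 genes rose. Ska3 read 5.39, 5.90 and 5.96 in VECTOR and 6.99, 6.99 and 6.92 in AC9; with all VECTOR arrays under the dim bound, the rise was at least 1.92-fold (adjusted p 0.000644). Ska2 read 8.53, 8.39 and 8.59 in VECTOR and 8.85, 8.84 and 8.71 in AC9. Its groups did not overlap, and its log2 change of 0.29 (SE 0.10) did not pass (adjusted p 0.0694), though it did with arrays centred on their median (0.0489), with dim genes left out (0.0273) and with an intensity-trended prior (0.0220). Ska1 was under the dim bound on every array, and no size is given; it did not pass (adjusted p 0.223), but did without VECTOR replicate 2 (0.0251). The median of the complex, 0.30, and its value of 0.47 without that array are those of Ska1 itself. They therefore give no size for the complex.

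Of 13 genes of the constitutive network, 9 rose and 1 fell. Cenpk and Cenpi belong to the CENP-H, I, K and M module. Cenpk read 4.81, 4.72 and 5.17 in VECTOR and 6.37, 6.35 and 6.17 in AC9, at least 1.20-fold higher because VECTOR was under the dim bound (adjusted p 0.000159). Cenpi read 6.31, 6.48 and 6.16 in VECTOR and 7.55, 7.45 and 7.68 in AC9, with no overlap (log2 change 1.25, SE 0.11, adjusted p 0.000131). Cenpm rose by 0.98 (SE 0.13, adjusted p 0.000966), while Cenph read 6.12, 6.49 and 6.22 in VECTOR and 6.57, 6.38 and 6.32 in AC9, overlapped and did not pass (log2 change 0.15, adjusted p 0.476). Cenpn, which with CENP-L contacts the CENP-A nucleosome, rose by 1.07 (SE 0.10, adjusted p 0.000154). Cenpl was at least 1.61-fold higher (adjusted p 0.00252).

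Within the CENP-O, P, Q and U module, Cenpq rose by 0.94 (SE 0.10, adjusted p 0.000408). Cenpu rose by 0.61 (SE 0.17, adjusted p 0.0380), and this call was lost without AC9 replicate 1 (0.112), 2 (0.0856) or 3 (0.0722). Cenpp passed, with every AC9 array above every VECTOR array, but all 6 arrays lay under the dim bound and no size is given. Cenpo had a log2 change of 0.31 (SE 0.10) and just missed the threshold (adjusted p 0.0570); it passed with repeated quantile normalization (0.0303), with centred arrays (0.0398) and with dim genes left out (0.0211). Cenpc1, encoding CENP-C, which bridges CENP-A chromatin to the outer kinetochore, rose by 0.38 (SE 0.12) at an adjusted p of 0.0488. That call was lost without any 1 array except VECTOR replicate 3 (0.0592 to 0.142), and with array weights (0.0506).

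Cenpt and Cenpw encode histone-fold proteins that pair and tie the centromere to NDC80. Cenpt was the 1 member that fell: it read 8.75, 8.63 and 8.35 in VECTOR and 7.97, 8.25 and 8.16 in AC9, a log2 change of -0.44 (SE 0.13, adjusted p 0.0394). AC9 lay below VECTOR on every array, but the call was lost without any 1 array except VECTOR replicate 3 (0.0511 to 0.137). It was lost too with centred arrays (0.0510), repeated quantile normalization (0.0571) and the replicate block (0.0565). Of the 23 background probe sets, 19 were also lower in AC9, while the bound from the negative controls was higher. The part of the background in this result, and in those of Zwint above and Cenpx below, was not tested. Cenpw overlapped between groups, with a log2 change of 0.19 (SE 0.12, adjusted p 0.323).

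CENP-A replaces histone H3 in centromeric nucleosomes, and 3 of the 4 genes of this group rose. Cenpa itself read 7.74, 7.78 and 7.95 in VECTOR and 8.98, 8.70 and 8.95 in AC9, with no overlap (log2 change 1.05, SE 0.11, adjusted p 0.000305). Hjurp, the chaperone that deposits it, rose by 0.69 (SE 0.13, adjusted p 0.00637). Oip5, the MIS18-beta protein that licenses deposition, read 6.05, 6.31 and 6.01 in VECTOR and 7.18, 7.27 and 7.20 in AC9, again without overlap (log2 change 1.10, SE 0.11, adjusted p 0.000207). Its partner Mis18a read 7.35, 7.15 and 7.25 in VECTOR and 6.86, 7.36 and 6.87 in AC9. AC9 replicate 2 was as high as the VECTOR arrays and above the other AC9 arrays, and the change of -0.22 (SE 0.14) did not pass (adjusted p 0.339).

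Partners within one complex were then compared through their changes. For 18 pairs, the within-array difference of the 2 genes was set between groups by a two-sided exact permutation test, which with 3 against 3 arrays cannot go below 0.1. The smallest value after Benjamini-Hochberg adjustment over the 18 pairs was 0.129, so no pair could pass 0.05. In 7 pairs a gene was under the dim bound, and no size is given for them. Of the other 11, the differences did not overlap between groups in 8 (exact p 0.1 for each). The pairs were chosen with earlier results known, and the share over other gene pairs was not computed, so this count is a description. The log2 change of Bub1 exceeded that of Bub3 by 2.03 (SE 0.14), and that of Bub1b did so by 1.80 (SE 0.19); both pairs share Bub3. Oip5 exceeded Mis18a by 1.32 (SE 0.20), Mad2l1 exceeded Mad1l1 by 0.84 (SE 0.13), and Zwilch exceeded Zw10 by 0.61 (SE 0.26). Cenpw exceeded Cenpt by 0.64 (SE 0.24). Dsn1 minus Nsl1 was -0.75 (SE 0.16) and Hjurp minus Cenpa was -0.37 (SE 0.08). The differences overlapped for Ndc80 minus Nuf2, at -0.11 (SE 0.27, exact p 0.7), for Cenpq minus Cenpu, at 0.33 (SE 0.28, exact p 0.4), and for Mis12 minus Pmf1, at 0.15 (SE 0.11, exact p 0.2).

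**Figure D4:**
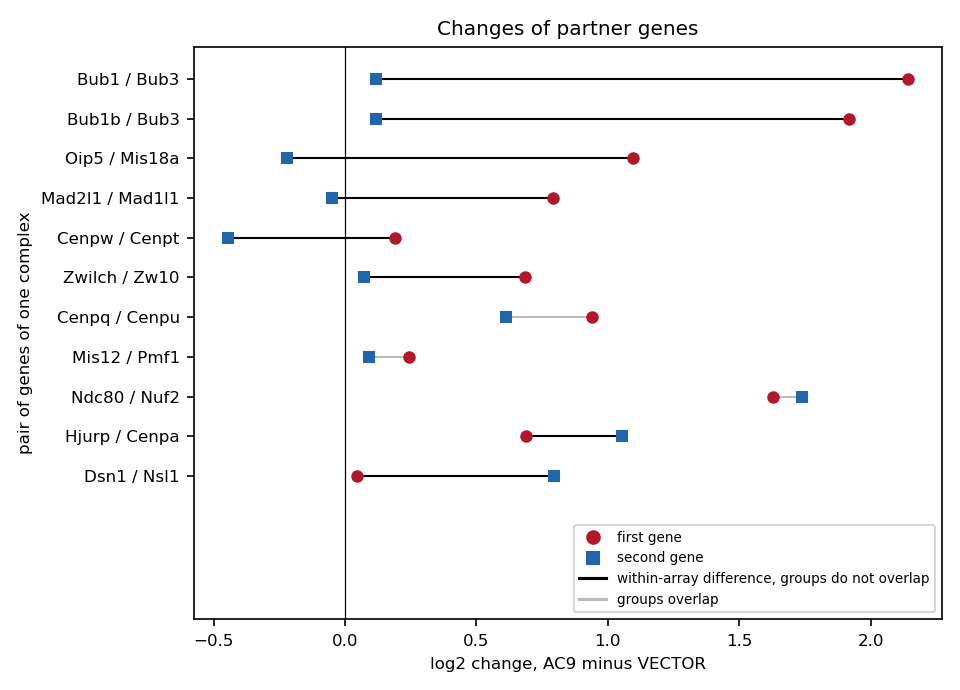
Log2 change (AC9 minus VECTOR, horizontal axis) of both genes in the 11 pairs with neither gene under the dim bound; circles are the first gene, squares the second, and black lines mark pairs whose within-array difference did not overlap between groups (3 arrays each). The widest gap, 2.03, is between Bub1 and Bub3, and Ndc80 and Nuf2 lie side by side.

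The members varied more among the VECTOR arrays than among the AC9 arrays. The SD was larger in VECTOR for 32 of 42 members (76.2%), against 57.3% of all genes, and its median was 0.18 in VECTOR and 0.11 in AC9, against 0.13 and 0.11 over all genes. VECTOR replicate 3 was the highest of its group for 26 of the 42 members, and replicates 1 and 2 the lowest for 17 and 19. VECTOR replicate 2 was not low throughout: it was the lowest for Bub1, Bub1b, Cenpe, Nuf2 and Spc25 and the highest for Cenpf, Cenpi, Oip5 and Spc24, genes picked out after their values were seen. For each of the 16 genes that rose at least 2-fold, the lowest AC9 array lay above the highest VECTOR array. These 16 were picked by the same values, so this adds no evidence to their calls. These spreads are a description, with no test.

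**Figure D5:**
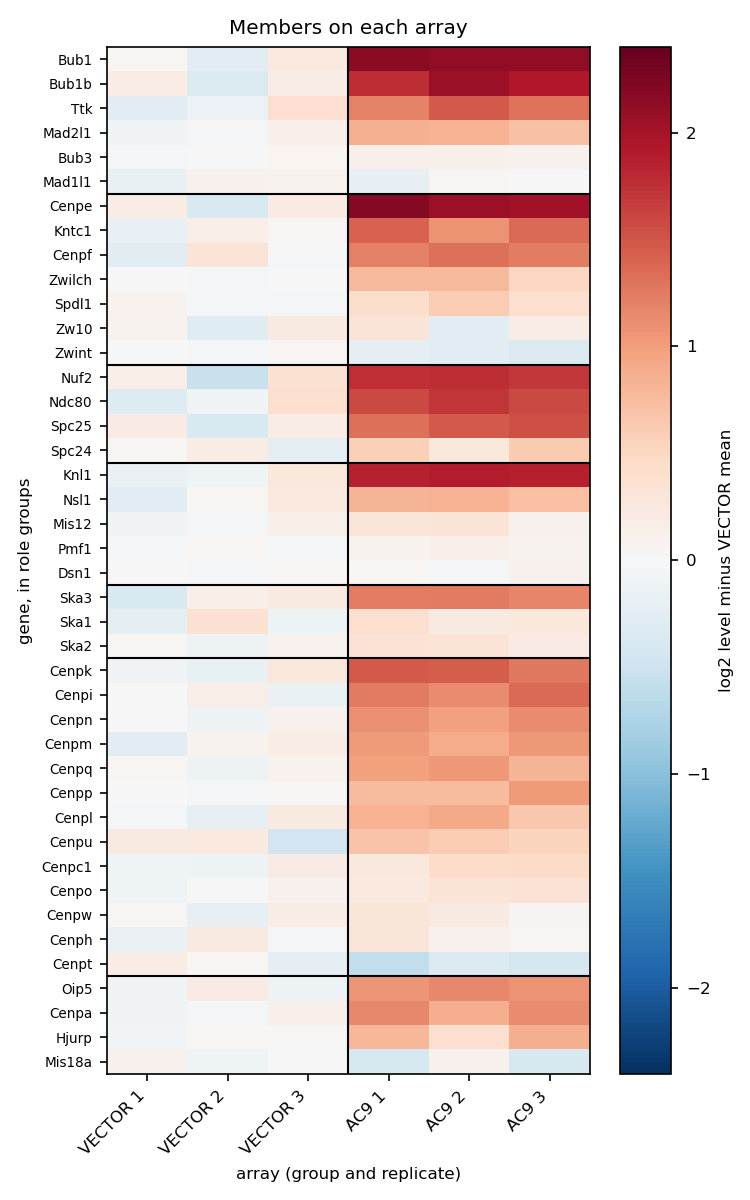
Level of each of the 42 genes (rows, in role groups) on each of the 6 arrays (columns) as log2 level minus the VECTOR mean, in colour from blue (lower) to red (higher). The 3 AC9 columns are red for Bub1, Cenpe, Knl1, Ndc80, Nuf2 and Spc25 and paler for Spc24. They are near white for Bub3, Mad1l1, Dsn1 and Pmf1.

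Other genes of the same machinery were taken from a list of 30, of which 28 were measured. In it 15 rose, 1 fell and 12 did not pass, with a median log2 change of 0.39. The background over all genes was 8.26% higher and 9.29% lower. The largest rises were those of Kif2c, a kinesin that removes faulty attachments, by 2.06 (SE 0.10, adjusted p 9.24e-06), Sgo1, which protects centromeric cohesion, by 1.93 (SE 0.15), and the mitotic kinase Plk1 by 1.78 (SE 0.13). Sgo2a, the second shugoshin, was at least 2.52-fold higher, with VECTOR under the dim bound. Cdc20, the target of the checkpoint, rose by 1.57 (SE 0.10) and Knstrn, an adaptor of the spindle protein astrin, by 1.49 (SE 0.13); adjusted p was 3.92e-05 for Plk1, 5.76e-05 for Sgo1, 7.69e-05 for Sgo2a, 2.09e-05 for Cdc20 and 8.80e-05 for Knstrn. The 1 gene that fell was Cenpx, a histone-fold partner in the CENP-T module, named after its value was seen, with 9.63, 9.76 and 9.84 in VECTOR and 9.15, 9.15 and 9.20 in AC9 (log2 change -0.58, SE 0.09, adjusted p 0.00305).

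Proliferation antigens and DNA replication genes are given beside these results. Mki67, a proliferation antigen, rose by 2.12 (SE 0.14) and Top2a, the topoisomerase of mitotic chromosomes, by 1.35 (SE 0.13; adjusted p 2.26e-05 and 0.000159). Of 19 measured genes of DNA replication, 7 rose and 0 fell by limma at the adjusted threshold, with a median of 0.10. Over all genes, 8.26% rose and 9.29% fell at that threshold, with a median of 0.02. At an unadjusted limma p of 0.05 in either direction, 8 of the 19 passed, as did 5904 of all 19505 genes. The largest rise among the 19 was that of Rrm2, a ribonucleotide reductase subunit, by 0.79 (SE 0.10, adjusted p 0.000730). The replication count was 3 without AC9 replicate 1 and 4 without VECTOR replicate 3. These 19 genes averaged 7.98 to 8.05 per array in VECTOR and 8.23 to 8.28 in AC9. The part of culture growth state in the members' rise was not tested.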

How the data were processed

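Total RNA of 3 AC9 and 3 VECTOR samples was hybridised to Affymetrix Clariom S arrays, per the labels' protocols. The authors deposited log2 intensities, 1 per probe set and array; the submitters' processing notes name RMA, and give neither its software nor the summary level. Of 22206 probe sets that were not controls, 19572 had 1 gene symbol in GEO's platform annotation, all matched to RefSeq by gene number; the probe set with the highest mean was kept per gene, leaving 19505. AC9 and VECTOR were compared with limma 3.58.1 in R 4.3.3 (lmFit, eBayes with a constant prior, two-sided) on the values as deposited, with Benjamini-Hochberg adjustment over all genes and a threshold of 0.05. SE is that of the fit, except for the partner pairs. For them it was computed from the variance of the within-array difference in each group, not from limma. A gene with 1 group mean under the dim bound has its fold as a lower limit, in which a dim array takes its own bound where its value is below it. The number of arrays limits the precision.

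The 42 genes, their role groups, the list of 30 related genes, the replication list, the pairs and the motifs were chosen with earlier results of these data known. In each role group, array values are given by rule for the 2 called members with the largest change and the member with the smallest; from the 30, the 6 largest are named. They are also given for Bub3 and Cenpt, which belong to the pairs, and for Zwint, chosen after its values were seen. Other members are given by change. In the alternative with dim genes left out, those under the 40th percentile of mean level were dropped. The methods were tested on simulated data. Same-numbered samples did not deviate together (correlations of 0.00764 to 0.0814 across genes), so the numbers were not treated as pairs.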

Additional observations from a re-analysis of the deposited data

How the results depend on the processing

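The direction of each member's change past the threshold held under every alternative in which it was fitted: another prior, repeated quantile normalization, centred arrays, dim genes left out, the mean of probe sets, array weights, the replicate block, an adjusted p of 0.01 and each array left out. Members that rose numbered 28 as reported and 24 to 30 otherwise (27 with the replicate block). The number that fell, 1 as reported, was 2 with an intensity-trended prior or dim genes left out, 0 with quantile normalization, centred arrays, the replicate block or an adjusted p of 0.01, and 0 to 1 with an array left out. Over all genes, 3424 passed, 1670 at 0.01 (729 higher, 941 lower) and 2174 to 3025 with an array left out (968 to 1491 higher, 1206 to 1534 lower). The replication genes called numbered 7, 3 at 0.01 and 3 to 5 with an array left out, with 1 lower under the trended prior. Of the related genes, 1 to 2 fell with an array left out. With an array left out, the medians were 0.81 to 0.95 for CENP-A and deposition, 0.97 to 1.19 for the checkpoint, 0.64 to 0.78 for the corona, 0.20 to 0.32 for KNL1 and MIS12, 1.37 to 1.68 for NDC80 and 0.27 to 0.47 for SKA; the SKA median was 0.75 without dim genes, which drops Ska1. The highest SKA median with an array left out, 0.47, is the value of Ska1, a dim gene. CCAAT was in 68.4% of 38 members over the whole window (42.2% of array genes) and 47.4% over its last 100 bases (15.6%). CHR letters were in 55.3% (19.6% of array genes) and 42.1% (5.06%). E2F letters were in 10.5% (3.38% of array genes) and 5.26% (1.2%). Same-numbered samples were not shown to be pairs; the replicate block lost the calls of Cenpt and Spc24 among the members. Signals near the background limit the 7 members under the dim bound in VECTOR. The alternatives for the replication genes, the pairs and Adcy9 were chosen after seeing the data.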
